A study of Homo sapiens with 12 samples.

Results

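In the human colorectal cancer line DLD1, an established cell line, 498 of the 1406 coding-sequence peaks in the authors' deposited table of differential N4-acetylcytidine (ac4C) peaks listed no site of the CXX motif. The table held 2364 peaks in all, and the 498 were its entries annotated to coding sequence (CDS) with a motif count of 0. They lay in 448 genes, and 908 further CDS peaks, in 795 genes, listed at least 1 site. Of the 498, 496 lay in genes called protein-coding and 2, in AC016876.2 and AC130462.1, in genes called processed transcripts.

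N4-acetylcytidine is an acetylated form of cytidine found in ribosomal RNA, transfer RNA and, by antibody and chemical mapping, in messenger RNA. NAT10 is the enzyme that writes it, using acetyl-coenzyme A and ATP. In messenger RNA the mark has been described in coding sequence and around start codons, with links to translation and transcript stability, and cytidines in runs of CXX triplets have been put forward as preferred positions.

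The study compared DLD1 cells at passage 5 that carried a control short hairpin RNA (genotype shNC) with cells whose hairpin was directed at NAT10 (genotype shNAT10). Each genotype had 3 input libraries of fragmented total RNA and 3 libraries made after pull-down with an anti-ac4C antibody (acRIP-seq), 12 in all. The labels do not say whether replicates came from separate cultures, nor whether a hairpin line was 1 clone. Each p-value therefore measures only the spread between these samples. In the linear model fitted below (limma) that spread was mostly pooled over genes of similar level. Per-library levels came from the input libraries only, and the deposited peak values carry no sample of their own.

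The motif as the table heads it, CNNCNNCNNCNN with N any base, is 12 letters long and needs 4 cytidines each 3 bases apart. No genome sequence was used here, so stretches of coding sequence could be read only where they fall inside a RefSeq promoter window (300 bases, GRCh38.p14, any gene). The first 3 sequences below are parts of peaks without a site, chosen as the longest readable stretches with a run of at least 2 such cytidines, and the capitals mark the longest run. The remaining 4 are listed sites in other CDS peaks and show what the 498 lack, with the 4 cytidines of the motif in capitals. All are printed 5′ to 3′ on the gene's strand.

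APPL1, chr3:57269541-57269615, plus strand: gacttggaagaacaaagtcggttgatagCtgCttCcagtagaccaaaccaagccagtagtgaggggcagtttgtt
VTA1, chr6:142147341-142147372, plus strand: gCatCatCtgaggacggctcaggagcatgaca
MED4, chr13:48077159-48077186, minus strand: gagattatgtCaaCggactcctcaagca
PCNA site, chr20:5119620-5119631, minus strand: CttCgaCacCta
NUP188 site, chr9:129006528-129006539, plus strand: CtaCttCcgCcg
SLC1A5 site, chr19:46787487-46787498, minus strand: CgcCgcCtcCgc
CCT4 site, chr2:61878880-61878891, minus strand: CaaCcaCttCac

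The APPL1 stretch held 14 cytidines in 75 bases (18.7%), yet its longest evenly spaced run was 3, 1 short of the motif, and so was that of VTA1. The run of MED4 was 2. APPL1, an adaptor protein of early endosomes, had a deposited log2 change of 11 and a fold of 278 in the authors' deposited table. VTA1, a cofactor of the ESCRT disassembly ATPase, had -6.57 with a fold of 19.4 there, and MED4, a subunit of the Mediator complex, had 6.29 with a fold of 52.4. Peaks that each missed the motif thus stood at both ends of the scale.

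The motif counts could be checked against sequence in part. Of the 3129 listed sites, 42 fell in a RefSeq window at their listed position and 38 of these carried the motif there. The other 4 were in minus-strand peaks of more than 1 block, where 485 of 827 listed positions (58.6%) lay outside the peak's own blocks. The positions in those peaks were therefore worked out again with the blocks laid out in reverse order, after the listed ones had been seen. This moved 13 sites into or within a window and all 13 carried the motif at the new position. Including these, 51 of 51 readable sites carried it. In reverse order 763 of the 827 positions lay inside blocks, so the layout did not place all of them, and most of the 3129 sites could not be read. For peaks listed without a site, 21 stretches with 1004 bases could be read, 7 of them from the 498, and 0 held the motif. These stretches were short, 12 to 139 nt with a median of 34 nt. For scale, the last 34 bases held the motif on the gene's strand in 5795 of 35116 RefSeq promoter windows (16.5%), and the whole 300 bases held it in 26311 (74.9%). The share of CDS peaks without a site was 31.6% and 35.9% on the plus strand for single-block and multi-block peaks, and 33.2% and 37.5% on the minus strand.

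Exonic length, the sum of a peak's blocks (the exon pieces it covers), was short and stepped in the 498. The median was 181 nt, with quartiles of 180 and 241 nt and a range of 113 to 867 nt. In CDS peaks with a site the median was 210 nt, with quartiles of 180 and 299 nt. Lengths lay within 1 nt of a multiple of 30 in 480 of the 498 (96.4%) and in 861 of the 908 (94.8%), and 166 of the 498 (33.3%) were exactly 180 or 181 nt long. The share without a site was lower in longer peaks. It was 45.8% of 120 CDS peaks of 101 to 150 nt, 38.9% of 316 at 151 to 180 nt, 39.9% of 331 at 181 to 210 nt and 33.3% of 138 at 211 to 240 nt. It was 30.2% of 235 at 241 to 300 nt, 27.2% of 184 at 301 to 400 nt and 25.6% of 82 above that. Class edges such as that between 180 and 181 nt split a 30-nt step, so neighbouring classes partly hold peaks of the same step. A longer peak has more positions at which a motif could lie, so this comparison does not separate length from base content. Regions are not replicates, and no test was made between the kinds of peak.

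The longest peak without a site was in GARS, glycyl-tRNA synthetase, at chr7:30599959-30616037 (GRCh38), with 867 nt in 8 blocks, a deposited log2 change of 1.12 and a fold of 9.62. ANKHD1-EIF4EBP3, a readthrough gene, followed with 720 nt in 5 blocks, and AHNAK with 631 nt in 1 block. The shortest were in HIST1H2AM (113 nt) and HIST1H3J (116 nt), core histone genes, followed by 11 peaks of 120 nt, among them that of ASNS, asparagine synthetase. The HIST1H2AM and HIST1H3J peaks shared 109 nt of position, so they are not separate observations. After GARS the most blocks were in RAB6A, a Golgi GTPase (6 blocks), followed by 11 peaks with 5 blocks, among them that of KIF5B, a kinesin heavy chain.

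Most peaks crossed at least 1 exon junction. A single block made up 147 of the 498 (29.5%, Wilson 95% interval 25.7 to 33.7%), 184 had 2 blocks (36.9%), 121 had 3 (24.3%) and 46 had at least 4 (9.24%). Single-block peaks were 33.7% of CDS peaks with a site (interval 30.7 to 36.8%) and 49.4% of the whole table. Within the 498, single-block peaks were 24.6% of those with a negative change and 35.2% of those with a positive one. These and other intervals cover counting error only.

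**Figure D1:**
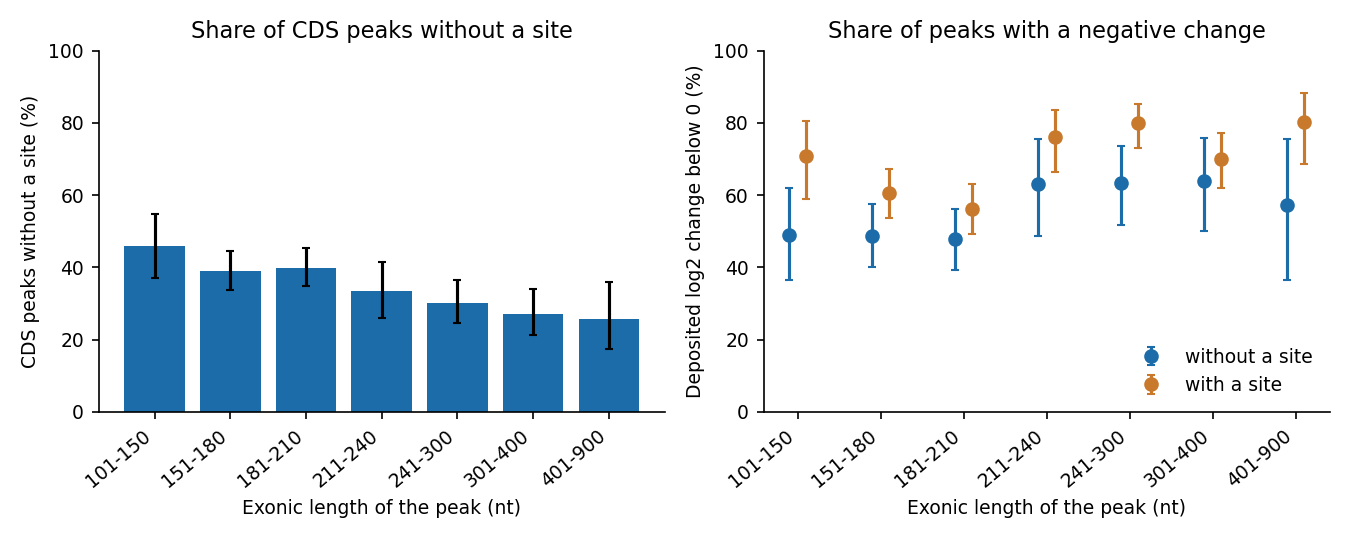
Left, the share of CDS peaks without a site (%, bars with Wilson 95% intervals) by exonic length in nt, from 45.8% in the shortest class to 25.6% in the longest. Right, the share of peaks with a deposited log2 change below 0 (%, points with Wilson 95% intervals), without (blue) and with (orange) a site. It was lower without a site in 7 of 7 length classes, whose edges split 30-nt steps of length.

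The deposited log2 change compares the hairpins by the authors' differential test, but which hairpin is the numerator is not stated, so signs are given without saying which cells had more. Of the 498 changes in the authors' deposited table, 268 were negative and 230 positive, and the negative share was 53.8% (Wilson interval 49.4 to 58.1%). Of all 2364 deposited peaks 61.7% were negative. Of the 908 CDS peaks with a site 619 were negative, 68.2% (65.1 to 71.1%). Every one of the 498 was listed with a differential FDR of at most 0.0490, so membership of the table already required a change. Changes ran from -8.99 to 13.20, with a median of -4.35 among negative and 6.17 among positive peaks, and 7 lay between -1 and 1. In CDS peaks with a site those medians were -4.52 and 5.54.

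By the number of sites, the negative share was 53.8% at 0, 64.4% (59.4 to 69.1%) at 1, 68.3% at 2 and 76.6% (69.3 to 82.6%) at 3. It was 66.0% of 50 peaks with 4 sites and 70.3% of 74 with 5 or more, so it did not climb further. The interval at 0 sites ended below that at 1. Within the 7 classes of exonic length the share was lower without a site in each, for example 48.8% against 60.6% at 151 to 180 nt and 63.4% against 79.9% at 241 to 300 nt, but the intervals of the 2 kinds overlapped in all 7. The class edges split 30-nt steps of length, such as 180 from 181 nt, so the 7 classes are not 7 separate lengths. Both kinds of peak come from the same deposited comparison.

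**Figure D2:**
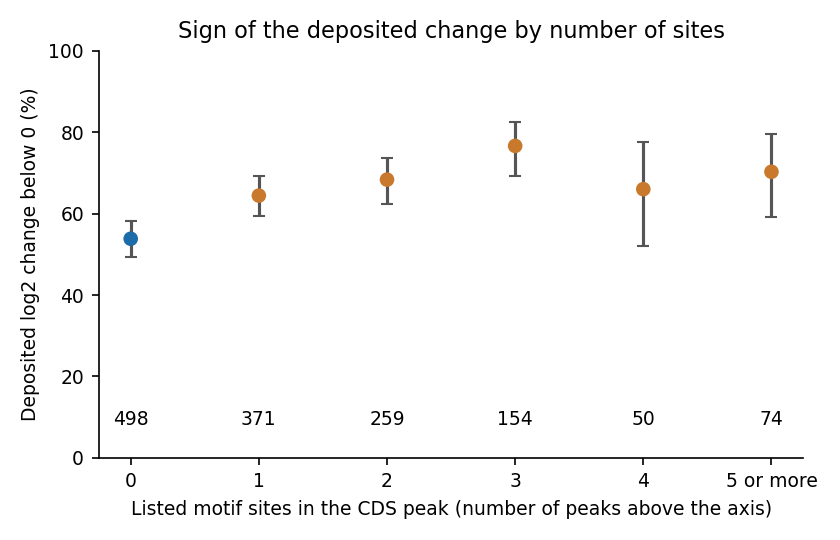
Share of CDS peaks with a deposited log2 change below 0 (%, points with Wilson 95% intervals) by the number of listed motif sites, with the number of peaks printed above the axis. The 498 peaks at 0 sites sit at 53.8%, below the 64.4% to 76.6% of the other classes.

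The negative share was lower among peaks of high deposited fold, the peak's own enrichment as the authors gave it. The median fold of the 498 was 10.9 (order-statistic 95% interval 9.43 to 13.6), with quartiles of 4.71 and 34 and a highest value of 834. With a site it was 9.15 (8.23 to 10.4). Among the 498 the median was 18.2 in positive and 7.33 in negative peaks, against 14 and 7.74 in CDS peaks with a site. A fold of at least 100 was listed for 51 of the 498 (10.2%), which were 37 positive (16.1% of positive peaks) and 14 negative (5.22% of negative peaks). The negative share of the 498 was 70.0% at folds under 3, 61.8% from 3 to 5 and 67.7% from 5 to 10. It was 50.0% from 10 to 30, 40.5% from 30 to 100 and 27.5% at 100 and over. In peaks with a site the same classes gave 79.7%, 75.4%, 72.4%, 64.7%, 58.8% and 45.3%, higher in each of the 6 classes. Limited to folds of at least 10, 42.9% of 266 peaks without a site were negative, so there positive changes were the larger group.

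**Figure D3:**
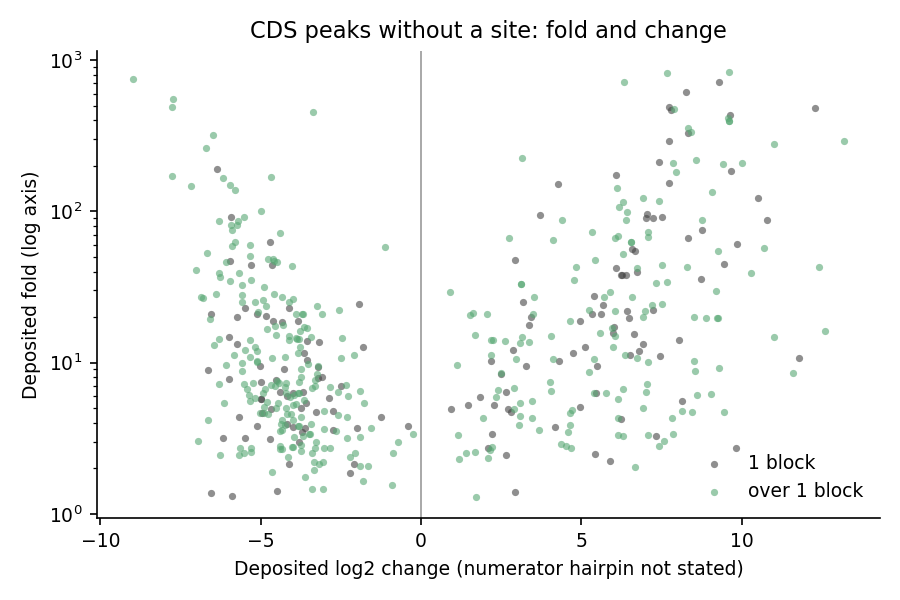
Deposited fold (log axis) against deposited log2 change for the 498 CDS peaks without a site, with single-block peaks in grey and peaks of more than 1 block in green. Points avoid the zone around 0, and folds of at least 100 are 37 on the positive side and 14 on the negative side.

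The largest folds in the authors' deposited table belonged to genes of mixed function. HEATR1, a factor for ribosomal RNA transcription and processing in the nucleolus, led with a fold of 834 and a log2 change of 9.60 (chr1:236550892-236552080, FDR 0.000537). RRP36, which acts in early ribosomal RNA cleavage, followed with 821 and 7.68 (chr6:43025022-43025328, FDR 0.0407). POGZ, a zinc finger protein of heterochromatin, had 746 and the most negative change of the 498, -8.99 (chr1:151408405-151408697, FDR 9.55e-05). NKX3-2, a homeobox factor of skeletal development, had 721 and 9.28. AFF4, a scaffold of the super elongation complex, had 712 and 6.32, and AC016876.2 had 616 and 8.26. In 5 of these 6 peaks the change was positive.

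Some of these genes were listed at 0 in the input, which in a table without counts need not mean that no transcript was present. Genes of general use were also among those listed at 0 in all 6 input libraries, such as CLP1, a factor of messenger RNA 3′ end formation, and MATR3, a nuclear matrix protein, under 1 of its identifiers. NKX3-2 and AC016876.2 were listed at 0 FPKM (fragments per unit of gene length and of library depth) in all 6 input libraries. RRP36 had 3.21, 0 and 0.660 FPKM in the shNC libraries, replicates 1 to 3 in that order, and was listed at 0 in the 3 shNAT10-labelled libraries. POGZ had 0.806, 18.5 and 2.84 FPKM in shNC and 0, 6.11 and 0 in the shNAT10-labelled libraries. HEATR1 had 20.4, 10.9 and 14.4 FPKM in shNC and 0, 9.44 and 9.50 in the shNAT10-labelled libraries, groups that did not overlap and were lower with the shNAT10 label, as in 6.72% of all genes tested. How a fold was scaled for a gene listed at 0 in the input is not given in the sources used here.

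Other strongly negative changes were in CEP128, a centriole appendage protein (-7.78), VWA8, a mitochondrial ATPase (-7.77), ZNF827, a zinc finger protein (-7.73), and ERC1, a scaffold of the cell cortex (-7.17). The most positive were in ZC3HC1, a protein of the nuclear basket (13.20, fold 293), ATP2C1, the Golgi calcium and manganese pump (12.60, fold 16.2), SLTM, a relative of the scaffold attachment factors (12.40), NR2C2, an orphan nuclear receptor (12.30), and 1 AHNAK peak (11.80). ZC3HC1 was above 0 FPKM in only 1 input library, shNC replicate 3, at 0.388.

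AHNAK, a giant scaffold protein at the cell membrane encoded largely by 1 exon, held more of the 498 than any other gene. All 16 of its deposited peaks were CDS peaks without a site, each in 1 block of 121 to 631 nt. They covered 4814 nt of a stretch of 15567 nt, while all CDS peaks together listed 6.03 sites per 1000 nt (1988 sites in 329602 nt). Changes were negative in 7 and positive in 9, and 9 of the 15 pairs of neighbours had opposite signs. From the 5′ end the first 4 peaks had changes of -1.24, -2.74, 0.921 and -0.412. The middle of the stretch held the highest value, 11.80 at chr11:62524122-62524302 with a fold of 10.7, and the lowest, -5.10, lay near its 3′ end at chr11:62520134-62520284. Folds ran from 2.25 to 47.8.

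In the input, AHNAK had 35.4, 36.1 and 41.3 FPKM in shNC and 23.8, 26.2 and 29.8 in the shNAT10-labelled libraries. The groups did not overlap, and the shNAT10-labelled libraries were lower. However, the log2 difference of -0.49 (SE 1.45, limma, adjusted p 0.921) equalled the median shift of all genes tested, given below. That SE came mostly from variance pooled over genes of similar level (prior degrees of freedom 212.6), not from AHNAK's own replicates. Leaving AHNAK out of the 498, a choice made after its values were seen, gave a negative share of 54.1% and 27.2% single-block peaks.

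**Figure D4:**
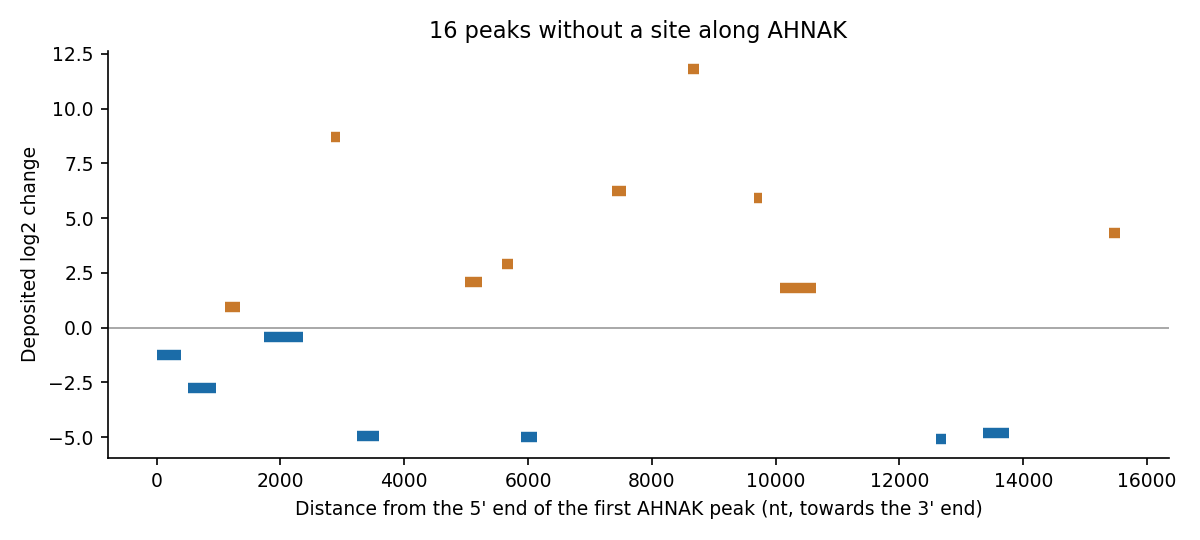
The 16 AHNAK peaks, each drawn as a bar over its extent in nt from the 5′ end of the first peak, at its deposited log2 change. Blue bars are the 7 negative and orange bars the 9 positive changes, interleaved along the transcript.

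Of the 448 genes 417 had 1 peak without a site. Beyond AHNAK, 30 genes had at least 2, of which 17 held both signs, 7 were all negative and 6 all positive. Among the 7 was EPPK1, whose 2 entries shared 120 of 121 nt and are 1 region listed again. HSP90AA1, the stress-inducible cytosolic HSP90, had 4, all positive, from 1.40 to 8.13, and no other deposited peak. PRKDC, the catalytic subunit of DNA-dependent protein kinase, had 4, all negative, from -5.96 to -3.19. DSP, the desmosomal plaque protein desmoplakin, had 3, at -3.81, 2.72 and 5.11. HUWE1, a HECT ubiquitin ligase, had 2, at -4.31 and 6.05. RPN1, a subunit of the oligosaccharyltransferase, had 2 negative peaks (-3.82 and -3.40), and PRPF31, a tri-snRNP splicing factor, had 2 positive ones (4.97 and 8.41). Both signs also occurred in DDB1, an adaptor of CUL4 ubiquitin ligases (-7.03 and 5.44), FAT1, an atypical cadherin (-2.76 and 2.64), and SEPT10, a septin (-3.04 and 2.39). A gene's peaks share its transcript and libraries and are not replicates.

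Peaks without a site were the only deposited peaks of 341 genes (76.1%). A CDS peak with a site lay in 68 of the 448 genes (15.2%), and 43 had a peak outside CDS. In 56 of those 68 each kind had 1 sign, and the kinds shared it in 31 (21 negative, 10 positive). In 10 the peaks without a site were negative and those with a site positive, and in 15 the reverse. Agreement beyond that given by the share of each sign was not tested. MATR3 counts under both of its identifiers and the HIST1H3J and HIST1H2AM peaks overlap, so the 56 are not all separate. FAT1 had 6 further CDS peaks with sites beside its 2 without.

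Some entries repeat each other. The deposited table held 10 overlapping pairs in which at least 1 peak was among the 498, and all 10 pairs had the same sign. They included TXNDC5 with BLOC1S5-TXNDC5 (-4.10 and -3.85), LUC7L2 with C7orf55-LUC7L2 (-3.17 and -3.20), AC130462.1 with NFATC3 (10.80 and 9.85) and MATR3 listed under a pair of identifiers (1.54 and 1.62). Reads there cannot be assigned to 1 gene, and 16 of the 498 were involved. In 4 of the pairs the other peak listed a site, as in ASNS with AC079781.5.

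Of the 19847 protein-coding genes listed with FPKM values, 446 (2.25%) had a peak without a site, and of the 8140 with a mean input level of at least 1 FPKM 386 did (4.74%). The list counts that follow are descriptions to be read beside these shares. In the translation machinery, of 85 cytosolic ribosomal protein genes, 4 had a peak without a site and all 4 changes were negative, in RPS6 (-0.724), RPL13 (-1.82), RPL37 (-0.236) and RPL35A (-2.30). Of 69 genes listed for translation factors and related proteins 3 had one, all negative. These were EEF1B2, an elongation factor subunit (-4.25), EIF3D, a cap-binding subunit of eIF3 (-3.34), and EIF2AK4, the GCN2 kinase that senses uncharged tRNA (-5.81). Of 35 aminoacyl-tRNA synthetase genes 7 had 8 peaks, 5 negative and 3 positive. YARS had -3.89 and NARS 3.50, and EPRS, the glutamyl-prolyl synthetase, had both signs (-3.49 and 4.66). Of all deposited peaks 61.7% were negative, and the lists were drawn up with results of these data known.

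Of 52 ribosome biogenesis genes 9 held 10 peaks, 4 negative and 6 positive. NCL, nucleolin, had -3.64 and NOP14, a small-subunit processome protein, -4.35. WDR43, a processome subunit, had 2 peaks of 8.59 and 7.87 with folds of 218 and 209. Of 44 genes for RNA-modifying enzymes and readers 2 had a peak, in YTHDF2, a reader of N6-methyladenosine (6.13), and TRMT61B, a mitochondrial tRNA methyltransferase (-3.65). For mitochondrial ribosomal proteins 4 of 78 genes had one, 3 negative and 1 positive, led in input level by MRPS18A (-6.15), MRPS9 (-5.19) and MRPS35 (-1.77).

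Chaperones and protein turnover were represented in both directions. Of 81 heat shock and co-chaperone genes 5 had 8 peaks, 4 negative and 4 positive, and all 4 positive ones were those of HSP90AA1. HSP90AB1, its constitutive partner, had -2.20, and HSPA5, the ER chaperone BiP, had -5.49. CCT7 was the 1 member of 9 chaperonin genes (-5.44), and PSMD1, a base subunit of the regulatory particle, the 1 of 48 proteasome genes (1.92). Of 262 ubiquitin ligase and deubiquitinase genes 8 had 9 peaks, 5 negative and 4 positive, among them USP5, which disassembles free ubiquitin chains (-6.54), and UBE4A, a U-box ligase (2.19). In the ER stress list, 5 of 26 genes had a peak, 4 negative and 1 positive, with -1.80 in CANX, calnexin, and 3.38 in PPP1R15B, a regulator of eIF2 alpha dephosphorylation.

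In a list for chromatin remodelling and histone modification that also held Mediator genes, 15 of 139 genes had 16 peaks, 10 negative and 6 positive. CHD4, the NuRD ATPase, had -6.87, BAZ1B, a subunit of imitation-switch complexes, -2.56, and SMARCC1, a BAF core subunit, had 7.09 and -2.32. DNA damage genes had 12 peaks in 7 of 45 genes, 9 negative and 3 positive, of which PRKDC gave 4. The Ku subunits XRCC6 and XRCC5 had -6.96 and -6.09. All 4 histone peaks (4 of 91 genes) were negative, the HIST1H2AM and HIST1H3J entries overlapping, and so were 11 of the 12 histone peaks with a site. Changes without a site were -3.68 in HIST1H3B, -2.22 in HIST1H3J, -4.53 in the linker histone H1F0 and -2.01 in HIST1H2AM. In a list of hnRNP, SR and other splicing factor genes 7 of 70 had 9 peaks, 4 negative and 5 positive. Changes were 8.50 in HNRNPA1, -2.66 in HNRNPAB and 6.42 in U2AF2, the large subunit of the 3′ splice site factor. DHX32 (6.49) was the 1 of 58 DEAD and DEAH box genes.

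For the cell cycle, mitotic genes had 11 peaks in 10 of 69 genes, 5 negative and 6 positive. NCAPD2, a condensin subunit, had -5.53, MKI67, the proliferation antigen Ki-67, -3.33, and CDC25C, the phosphatase that opens mitosis, 6.91. Replication genes had 5 peaks in 5 of 53 genes, 3 negative and 2 positive, with 6.25 in TYMS, thymidylate synthase, 6.04 in the helicase subunit MCM3 and -4.56 in PCNA, the sliding clamp. The PCNA peak with sites, printed above, had -5.49. Nuclear pore, transport receptor and Ran-binding protein genes had 6 peaks in 5 of 59 genes, 4 negative and 2 positive. Changes were 4.05 in the import receptor IPO7, -3.90 and -4.48 in the pore protein NUP98 and -5.75 in RANBP2, the cytoplasmic filament protein.

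In the cytoskeleton and at membranes, giant linkers held 28 peaks in 10 of 34 genes, 16 negative and 12 positive, of which AHNAK gave 16. PPL, periplakin, had -3.98, and the 2 entries of EPPK1 shared 120 of 121 nt. Motor genes had 7 peaks in 6 of 103, 1 negative and 6 positive, with 3.05 in KIF5B, 11.60 in the myosin MYH10 and 2.35 in the chromokinesin KIF22. Vesicle coat and trafficking genes had 11 peaks in 11 of 197, 3 negative and 8 positive, with -4.01 in the clathrin adaptor AP2M1, 4.64 in RAB10 and 4.64 in the coatomer subunit COPA. Adhesion and junction genes had 7 peaks in 4 of 150, 2 negative and 5 positive, including 7.52 in DSG2, a desmosomal cadherin. TUBG1, gamma-tubulin, was the 1 of 29 actin and tubulin genes (-2.06), and no gene of 55 in the keratin list had a peak without a site.

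Among metabolic and signalling genes, respiratory chain genes had 4 peaks in 4 of 99, 3 negative and 1 positive, with -5.01 in NDUFA8, -6.70 in NDUFB6 and -6.39 in ATP5A1. LDHB, lactate dehydrogenase B, was the 1 of 18 glycolysis genes (-2.46) and FASN, fatty acid synthase, the 1 of 26 lipid synthesis genes (-1.64). Solute carriers had 3 in 333 genes, in SLC12A2 (-2.08), SLC27A2 (7.46) and SLC25A25 (-5.32). Receptor kinase and RAS-MAPK genes had 3 in 63, among them MAP2K1 (-5.32) and NF1 (4.01). DVL3, a Wnt signal transducer, was the 1 of 37 Wnt genes (-3.61). Of 553 C2H2 zinc finger genes 5 had a peak, among them ZKSCAN1 (-5.13), ZNF32 (-4.0) and ZNF416 (7.79). None of 17 ferroptosis and 39 NF-kB genes had one, nor did any of the 9 colon epithelium markers or the 14 markers of other cell types used to check the cell label.

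The input libraries placed these genes at a range of levels. The median over the 448 genes was 4.97, 5.13 and 3.88 FPKM in the shNC libraries and 1.15, 1.32 and 1.5 in the shNAT10-labelled libraries. Of the 448, 97, 91 and 88 were listed at 0 in shNC and 144, 156 and 125 in the shNAT10-labelled libraries. The libraries labelled shNAT10 lay lower by both measures without overlap, and so did the 795 genes with a CDS peak with a site, whose medians were 4.60, 3.15 and 3.16 against 1.02, 1.13 and 1.19 FPKM. The most common ratio of a gene's FPKM to that in shNC replicate 1 was 2.43, 2.26 and 2.82 in the 3 shNAT10-labelled libraries. It was shared by 71 of 4552, 57 of 4579 and 103 of 5221 genes above 0 in both libraries. If that ratio stands for 1 fragment against 1, these libraries were shallower, but no counts were at hand to check this. The part of depth in the lower values was not tested. In RNA from bulk cultures, fewer cells with a transcript and less of it in each cell cannot be told apart.

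Of the 448 genes 170 (37.9%) were above 0 in all 6 input libraries and 20 (4.46%) in none. In peaks, 20 of the 498 (4.02%, Wilson interval 2.61 to 6.12%) lay in a gene listed at 0 in all 6, beside 5.07% of CDS peaks with a site and 4.57% of the whole table. Of the 20, 7 were in overlapping pairs of peaks. Of the 230 positive peaks 32 (13.9%) lay in a gene at 0 in all 3 shNAT10-labelled libraries, and of the 268 negative ones 21 (7.84%). At 0 in all 3 shNC libraries the numbers were 15 (6.52%) and 13 (4.85%). CDS peaks with a site showed the same order, with 16.3% of positive and 11.1% of negative ones in a gene at 0 in all 3 shNAT10-labelled libraries. These counts carry no test. The median deposited fold was 22.1 in the 125 peaks whose genes had the lowest mean input FPKM, 14 and 11.3 in the next groups of 124 peaks and 5.07 in the 125 at the top. Negative changes were 49.6%, 54.0%, 51.6% and 60.0% of those groups. The 498 peaks share the same libraries and often a gene. Across them the Spearman correlation of mean input with fold was -0.35 and with the change -0.05. In CDS peaks with a site the values were close, -0.34 and -0.02.

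The most abundant of these genes in the input was HIST1H3B, a core histone H3 gene, at 1320, 640.0 and 1881 FPKM in shNC and 1782, 1669 and 3020 in the shNAT10-labelled libraries. Its log2 difference was 0.83 (SE 0.41, limma, adjusted p 0.754), and the groups overlapped. HSP90AB1 had 361, 311 and 385 FPKM against 354, 261 and 497, and RPS6 had 336, 295 and 226 against 354, 247 and 456. Both overlapped between groups. HIST1H3J spread widely, at 170, 62.1 and 545 FPKM in shNC and 12.1, 512 and 1.08 in the shNAT10-labelled libraries. MRPS18A had 134, 65.2 and 143 against 411, 13 and 287, with the lowest and the highest value both in the shNAT10-labelled libraries. Histone, ribosomal protein and HSP90 genes have close copies or pseudogenes, and their levels are uncertain because no source used here says how shared reads were assigned.

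HSP90AA1, with its 4 positive peaks, had 191, 123 and 196 FPKM in shNC and 207, 97.7 and 137 in the shNAT10-labelled libraries. CANX had 117, 179 and 193 against 93.9, 146 and 160, FAT1 164, 125 and 158 against 160, 54.7 and 180, RPL13 99.8, 131 and 131 against 290, 69.9 and 119, and PSAP, the saposin precursor of lysosomes, 103, 226 and 160 against 55.3, 169 and 55.2. In each of these 5 the groups overlapped. PRKDC, with its 4 negative peaks, had 47.5, 35.0 and 60.1 FPKM in shNC and 55.3, 7.19 and 43.2 in the shNAT10-labelled libraries, which also overlapped. DSP had 58.6, 23.8 and 25.5 against 54.8, 38.4 and 7.11, and HUWE1 17.2, 4.06 and 13.4 against 14.2, 7.22 and 45.8. RPN1 and PRPF31 overlapped too, at 34.3, 46.6 and 50.5 against 54.6, 5.18 and 68.4 for RPN1, and at 39.1, 7.63 and 31.1 against 0, 52.9 and 4.68 for PRPF31.

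**Figure D5:**
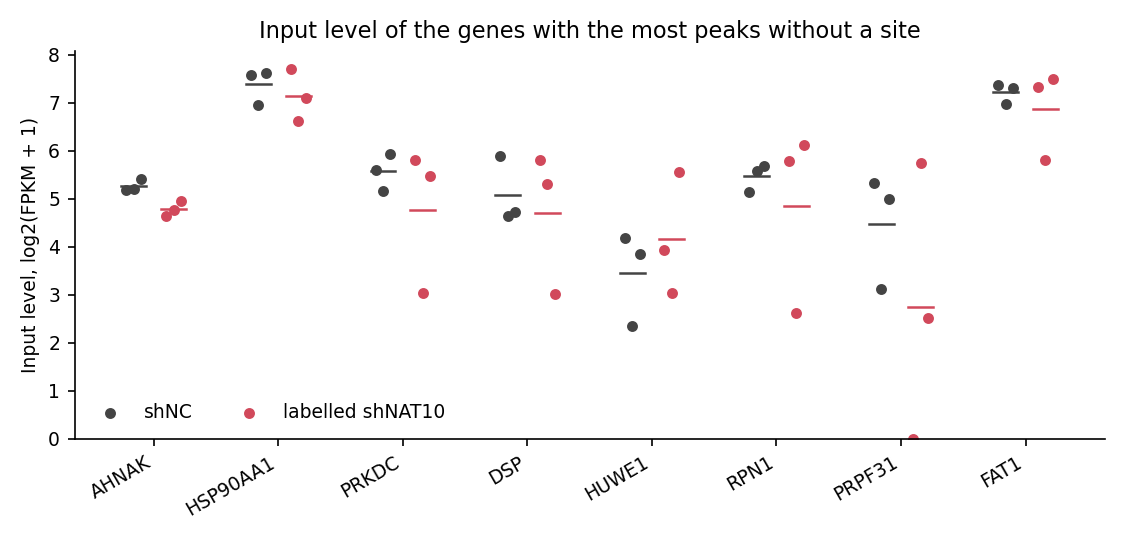
Input level, log2(FPKM + 1), of the 8 genes with the most CDS peaks without a site in 3 shNC libraries (grey points) and 3 shNAT10-labelled libraries (red points), with lines at the group means. Among the 8, AHNAK alone has groups that do not overlap.

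Over the whole table, limma on log2(FPKM + 1) tested 10517 genes with a mean of at least 1 FPKM and called 20 (0.19%) at an adjusted p below 0.05. Of the 448 genes 386 could be tested and 0 were called. At an unadjusted p below 0.05 there were 10 (3 higher and 7 lower in the shNAT10-labelled libraries). That was 2.59% of those tested, against 3.7% of all genes tested and 2.19% of the 8140 protein-coding genes tested. Of those 8140 genes 0 were called, so all 20 calls lay outside protein-coding genes. The 0 among the 386 thus does not set them apart from other protein-coding genes. The count of 20 fell to 1 without any 1 of the shNC replicates and was 12, 34 and 23 without shNAT10 replicate 1, 2 or 3, while the count among the 386 was 0 in each case. The median log2 difference was -0.34 over the 386 genes and -0.49 over all 10517, and -0.34 over the tested genes with a CDS peak with a site. It was -0.31 both over the 204 genes with only negative peaks and over the 166 with only positive ones. Quantile normalization moved the median of all genes to -0.08 and that of the 386 to 0.065, and a TPM scale moved them to -0.65 and -0.56, so the sign of the median depends on the scaling.

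Among the 386, the groups did not overlap in 16 genes that were higher and 29 that were lower in the shNAT10-labelled libraries, 11.7% together. Among all genes tested the shares were 2.89% higher, 6.72% lower and 9.61% together, and among protein-coding genes tested 10.2% together. The largest difference among the higher ones was that of MAP4K2, a germinal centre kinase, at 0, 0 and 0.191 FPKM in shNC and 19.6, 10.1 and 33.4 in the shNAT10-labelled libraries (log2 difference 4.23, SE 1.87, limma, adjusted p 0.754). PITRM1, a mitochondrial protease (3.71), ASCC3, a helicase of ribosome quality control (3.34), AKAP12, a kinase anchor (3.14), and UNC13D, a factor of granule release (2.84), came next. On the lower side stood STT3B, a catalytic subunit of the oligosaccharyltransferase, at 47.9, 24.1 and 58.6 FPKM in shNC and 3.30, 0 and 0 in the shNAT10-labelled libraries (log2 difference -4.69, SE 1.80, limma, adjusted p 0.754). TFB2M, a mitochondrial transcription factor (-4.66), TCEA3, an elongation factor (-4.38), TOP1, DNA topoisomerase I (-3.79), and WAC, an adaptor for histone H2B ubiquitination (-3.75), followed. None of these 10 passed the adjusted threshold, and a difference on the log2(FPKM + 1) scale understates changes of low genes.

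NAT10 itself was listed at 1.24, 3.95 and 2.89 FPKM in shNC and at 0, 28.1 and 31.4 in the shNAT10-labelled libraries. Replicates 2 and 3 with the NAT10 hairpin were thus above every shNC library, against their label. The log2 difference was 1.48 (SE 1.86, 95% interval -2.18 to 5.15, limma, adjusted p 0.754), and a two-sided exact permutation test gave p = 0.4, where 0.1 is the smallest that 3 against 3 allows. The direction turned to -0.23 with a pseudocount of 0.01, which gives the value of 0 in shNAT10 replicate 1 more weight. Without shNAT10 replicates 2 and 3 it was -1.81, negative by construction because only that 0 was left in the group. The label DLD1 was checked against 9 markers of colon epithelium, of which 7 were above 0 in all 6 libraries. The summed level of the 9 was 5083 to 8668 FPKM, of which KRT8 alone gave 3112 to 5866. EPCAM ran from 38.3 to 370 FPKM and CDH1 from 24.5 to 78.6. Levels of CDX2 (0.608 to 65.3) and VIL1 (1.04 to 38.0) reached lower. CLDN7 was at 0 in shNAT10 replicate 1, and KRT20 was above 0 in 1 library. Of 14 markers of fibroblasts, endothelium, leukocytes and neural cells, 0 were above 0 in all 6 libraries and 4 were at 0 throughout. Their summed level was 0.130 to 83.4 FPKM, the highest in shNAT10 replicate 3, where VIM was 78.0.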

How the data were processed

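The authors' deposited FPKM table holds 58302 genes in 6 input libraries, columns named NC matching the shNC titles and those named sh taken as shNAT10 by elimination; 0 per-sample columns stayed unmapped, and enrichment per antibody library was not analysed here. Per the file headers, the authors' deposited peak table gives a fold per peak, a log2 change, log10 of a p-value and of an FDR, a score, blocks and motif sites. Per the submitters' processing notes, cutadapt 2.5, HISAT2 2.1.0 and HOMER 4.10.4 and builds GRCh38 and GRCm38 are named; 487 of 492 peaks without a site lay inside their RefSeq gene on GRCh38. The counter, annotation and peak caller are not given in the sources used here.

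Exonic length is the sum of blocks, and coordinates count from 1. limma 3.58.1 in R 4.3.3 (trend, pseudocount 1, mean FPKM of at least 1, Benjamini-Hochberg) was run on simulated data as a check of the code. The simulated noise was much smaller than that of these libraries, so the check cannot show how many changes were missed here. Named genes were the extremes of fold, change, length, blocks, peak number and input level, and up to 3 genes of each of 39 lists by input level; RPL35A, EPRS, XRCC5 and HIST1H2AM in those lists, the genes of printed sequences and overlapping entries, and input levels of genes with extreme folds were added after their values were seen. The members and lists were chosen with earlier results of these data known. Replicate numbers do not pair the samples.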

Additional observations from a re-analysis of the deposited data

How the results depend on the processing

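The peak descriptions (negative share, length, single-block share, fold and share in genes at 0) moved by less than their counting error with an FDR of at most 0.01, 1 peak per gene, overlapping entries of a gene counted once, protein-coding genes only, lengths of 150 to 300 nt, and without AHNAK. Counting overlapping entries once left 497 of the 498 peaks, because pairs under different gene identifiers were kept, so it could move little. With 1 peak per gene the peak of highest fold was kept, which favours high folds, and the median fold was 12.4. A fold of at least 10 moved the negative share to 42.9% and, by construction, the median fold to 28.9.

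The 20 limma calls over all genes became 7 with a pseudocount of 0.01, 0 with no filter on low values (340 at an unadjusted p below 0.05), 10 with a mean of at least 5 FPKM and 0 with shNAT10 replicates 2 and 3 left out together (1139 unadjusted), and ranged from 1 to 34 without 1 library. The count among genes with a CDS peak without a site was 0 under all 15 alternatives. Their median log2 difference of -0.34 became -0.56 with a pseudocount of 0.1, -0.80 with 0.01, -0.56 on a TPM scale, 0.065 after quantile normalization and -0.67 without shNAT10 replicates 2 and 3, and ranged from -0.49 to -0.32 without 1 library. The NAT10 difference of 1.48 reversed to -0.23 with a pseudocount of 0.01, and ranged from 0.62 to 3.13 without 1 library. Without shNAT10 replicates 2 and 3 it was -1.81, negative by construction because NAT10 was 0 in the library left. A lone library left in a group was assumed to vary like the others.

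Same-numbered libraries did not deviate together (correlations 0.00, -0.02 and 0.01). With the replicate number as a block there were 21 calls, 0 among these genes, a median of -0.34 and a NAT10 difference of 1.48. In each shNAT10-labelled library the most common ratio of a gene's FPKM to that in shNC replicate 1 was over 2. Genes above 0 numbered 6348, 6435 and 8117 in shNAT10-labelled replicates 1 to 3 and 8449, 8340 and 8682 in shNC. The part of depth in these values was not tested.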
